A study of Mus musculus with 6 samples.

Results

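Genes of the axon guidance families were examined in NMuMG, a line of epithelial cells grown from mouse mammary gland, after the transcriptional repressor Mnt was lowered with small interfering RNA (siRNA). The families were the Eph receptors and their ephrin ligands, the semaphorins with their plexin and neuropilin receptors, the netrins with their Unc5 receptors, and the Slits with their Robo receptors. Members were taken by gene symbol: 55 genes of the 9 families were in the table of 14526 genes, and the 45 whose mean over the 6 libraries reached 10 normalised read counts were kept. They make up 45 of the 12568 genes of the table that met that minimum. The 45 comprise 17 semaphorins, 8 ephrins, 7 plexins, 6 Eph receptors, 2 neuropilins, 2 Robos, Ntn4, Unc5b and Slit3, which gives 27 ligands and 18 receptors. Of the 10 left out, Ntn1 (mean 9), Ntn3 (6.27) and Slit2 (4.74) lay nearest the minimum, and Efna2 (12.5), Efnb3 (16.5) and Robo3 (34.2) were the lowest kept. The other 7 left out were Epha1, Ephb2, Sema3g, Sema7a, Plxnc1, Ntn5 and Slit1.

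RNA was sequenced in 6 libraries, all from cells that had received TGF-beta, which drives NMuMG cells from an epithelial to a mesenchymal form. In 3 libraries the cells carried siRNA against Mnt (siMnt) and in 3 a non-targeting control siRNA (siNTC). Per the labels' protocols, siRNA and TGF-beta were given together 16 hours after plating and renewed on day 2, and RNA was taken at day 4. Whether the replicates came from different cultures is not in the labels, and the p-values therefore reflect the spread among these libraries alone, possibly a technical one. Every difference given is thus between siRNAs under TGF-beta.

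Guidance cues were named for their part in steering growing axons, and epithelial cells use the same ligands and receptors to set adhesion, repulsion and motility. Ephrins are held on the cell surface and bind Eph receptor tyrosine kinases on a neighbouring cell, with signals passing into both cells. Semaphorins bind plexins, which pass the signal into the cell, and the secreted class 3 semaphorins mostly use a neuropilin as co-receptor. Netrins bind Dcc, neogenin and Unc5 receptors, Slits bind Robo receptors, and both systems can attract or repel migrating cells. In mammary gland, these families are known from duct branching and from the boundary between the luminal and basal layers.

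Values are normalised read counts, siNTC first and siMnt second, summarised as mean ± SD with n = 3 in each group. A log2 fold change is the siMnt mean less the siNTC mean of log2(value + 1), given ± its standard error, which understates the change of scarce genes. Adjusted p-values are limma's, corrected by Benjamini-Hochberg across the 12568 tested genes and read at 0.05. The libraries held 22323050 to 42193292 reads. Mnt, the targeted gene, held 1316, 896 and 1596 in siNTC and 613, 557 and 749 in siMnt, without overlap. Its means were 1269 ± 352 and 639.7 ± 98.5, or 50.4% of the control level (log2 fold change -0.96 ± 0.22, adjusted p = 0.0546 with limma, 0.00442 with the replicate number as a block). Without siNTC replicate 2 or 3 that adjusted p was 0.0393 or 0.041, without any other single library it was 0.0902 to 0.225, and the two-sided exact permutation p for Mnt by itself was 0.1, the lowest possible with 3 libraries in each group. On the first principal component, with 60.8% of the variance, siNTC replicate 3 lay at -0.8, between the other controls (-43.0 and -52.3) and the siMnt libraries (29.4 to 35.5). The epithelial markers Cdh1, Krt8, Krt18, Krt19, Dsp and Ehf were all present, at a summed level of 124887 to 147521 in siNTC and 142280 to 154325 in siMnt, most of it Krt8 and Krt18. Of them Ehf passed the test, from 1374 ± 536 to 3176 ± 325 (limma adjusted p = 0.0368). Dsp (8208 ± 2418 and 14888 ± 2901) and Cdh1 (7543 ± 2429 and 10572 ± 729.6) did not (0.081 and 0.179), but passed with the block (0.00877 and 0.0474). Krt8, Krt18 and Krt19 had log2 fold changes of -0.09 ± 0.16, 0.06 ± 0.22 and 0.34 ± 0.21, and none of these passed with or without the block. Summed over the 5 of 8 leukocyte markers in the table the range was 963 to 1329 in siNTC and 2001 to 2300 in siMnt, most of it Csf1r, then Cd68, with Ptprc between 1.29 and 6.65. Csf1r (adjusted p = 0.0242) and the scarce Itgam (6.02 ± 2.096 and 23.9 ± 5.34, adjusted p = 0.0493) passed, both higher in siMnt. Over 4 of 8 endothelial markers it was 91.7 to 126 and 98.4 to 118, over 3 of 8 neuronal markers 26.2 to 84.2 and 6.13 to 15.1, and over 4 of 8 fibroblast markers 308 to 396 and 410.5 to 564. The endothelial sums joined Esam, which passed higher in siMnt (9.73 ± 3.33 and 37.6 ± 5.79, adjusted p = 0.0353), and Cdh5, which was lower in every siMnt library (80.1 ± 16.4 and 40.4 ± 7.81, adjusted p = 0.0836; 0.0435 with the block). No neuronal or fibroblast marker passed limma without the block. Tubb3 and Pdgfrb had the smallest p of those lists (adjusted p = 0.0651 and 0.0854 with limma, 0.0197 and 0.0147 with the block, 0.00627 and 0.016 by DESeq2). None of the markers in the table was at 0 in every library, and the part of these levels in the results was not tested. In such bulk samples, fewer cells of a type and less RNA per cell cannot be told apart.

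No guidance gene passed the limma test between siMnt and siNTC without the replicate block. With limma 0 of 45 members passed, where 3.93% of all tested genes did (2.56% higher and 1.37% lower in siMnt), and 11 members had an unadjusted p under 0.05 (24.4% of members, against 23.4% of all tested genes). edgeR on whole reads called 0 members (3.54% of all genes, 2.29% higher and 1.25% lower), with 11 of 45 at an unadjusted p under 0.05, beside 2910 of 12568 genes. DESeq2 called 4 (11.6% of all genes, 6.71% higher and 4.89% lower): Efna1 and Sema3a higher, Sema4f and Unc5b lower in siMnt. The nearest to the threshold were Sema4f, Unc5b and Sema3a, with adjusted p of 0.0556, 0.0654 and 0.0701. By sign alone 28 members were higher (62.2%, against 48.6% of all genes) and 17 lower, with a median log2 fold change of 0.16, against -0.01 over all tested genes. An absolute log2 fold change of at least 1 was seen in 4 members, Sema4f, Sema3a, Sema6b and Epha7 (8.89%, against 7.25% of all genes). In 13 members (28.9%, against 31.5% of all genes) the groups did not overlap, 5 higher in siMnt (15.6% of all genes) and 8 lower (15.9% of all genes), which makes 11.1% and 17.8% of the members, near the background. The 95% interval of the log2 fold change stayed within -1 and 1 for 24 members (53.3%, against 75.4% of all genes), so for those a 2-fold difference lies outside the interval, and for the other 21 it does not.

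Same-numbered libraries deviated together, and a fit with replicate number as a block called 12 of 45 members. Of these 9 were higher in siMnt (9.33% of all genes passed higher) and 3 lower (6.56% of all genes passed lower). The 9 were Sema3a, Sema4a, Sema4g, Sema6b, Sema6d, Efna1, Epha7, Nrp2 and Slit3, and the 3 were Sema4f, Unc5b and Efnb2. The members' share, 26.7%, stands beside 15.9% of all tested genes. The count changed with single pairs, and the count over all tested genes changed with it. Without pair 1 it was 7 members, beside 1107 genes in all. Without pair 2 it was 0 members, beside 0 genes in all, with 14 of 45 members at an unadjusted p under 0.05, beside 2907 of 12568 genes. Without pair 3 it was 20 members, beside 3805 genes in all. These fits had 1 residual degree of freedom. Without siNTC replicate 3 alone and no block, 12 members were higher (9.51% of all genes) and 2 lower (6.5% of all genes), 9 of the 14 being among the 12 of the block. With all 6 libraries and no block, limma had called 0 members. Leaving out siNTC replicate 2 gave Unc5b alone (217 genes in all), and leaving out siMnt replicate 3 gave Sema3a alone (125 genes in all). No member passed when the first control, the first siMnt or the second siMnt library was left out, and 0 genes passed in all. With trends in GC content and length removed as well as the block, 12 passed (18.9% of all genes), 7 higher (11% of all genes) and 5 lower (7.94% of all genes), 10 of them among the 12 of the block.

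**Figure D1:**
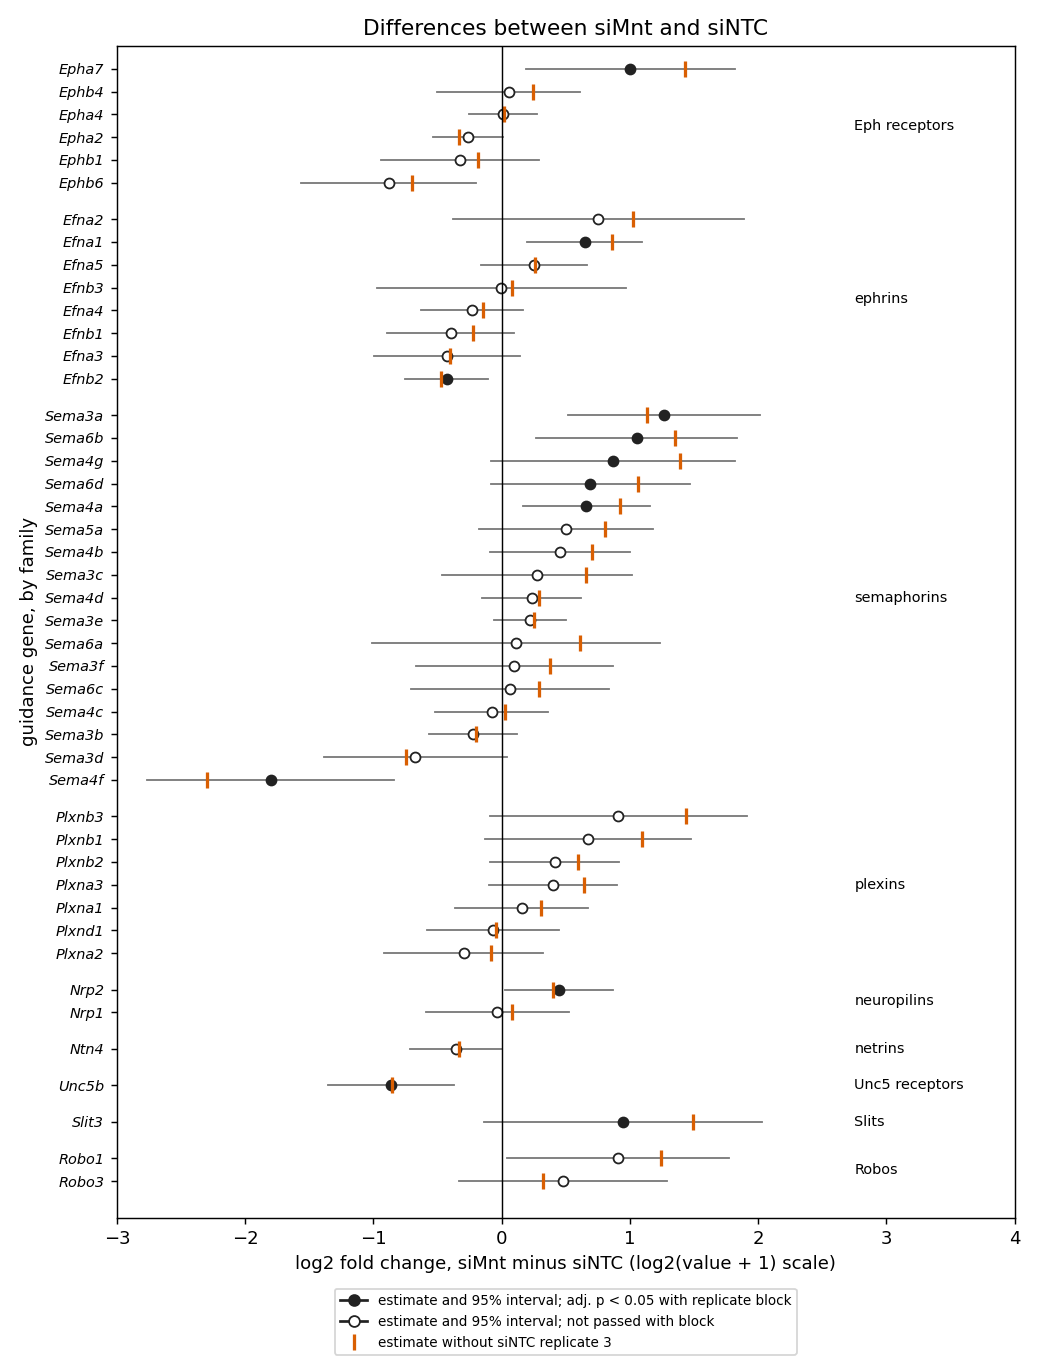
Log2 fold change (siMnt minus siNTC, x axis) of the 45 guidance genes by family, with its 95% interval from limma; filled circles passed with the replicate block and the orange ticks give the estimate without siNTC replicate 3. The 12 filled circles hold 9 genes to the right of 0 and 3 to the left, and most orange ticks of semaphorins and plexins lie to the right of their circles.

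For comparison between genes, levels were divided by the length in kb of the longest annotated transcript, which may not be the one expressed. On this scale the highest guidance ligand was the secreted semaphorin Sema3c, at 4708 ± 2385 normalised read counts per kb in siNTC and 5284 ± 812 in siMnt. The plexin Plxnb2 followed at 3156 ± 900.1 and 4083 ± 236 per kb. After them came, in siNTC, the receptors Epha2 (2048 ± 173 per kb), Unc5b (1982 ± 508) and Nrp1 (1857 ± 499), whose order lies within their spread. Plxna1 (1191 ± 342) and Sema3e (1190.2 ± 116) stood level, ahead of Efnb2 (998 ± 150.1) and Efna1 (913 ± 249). In siMnt, Unc5b went from the fourth to the eighth place at 1079 ± 207 per kb and Efna1 from the ninth to the fifth at 1404 ± 159. The lowest were Efna2, Efnb3, Robo3 and Plxnb3, between 4.35 and 7.58 per kb in siNTC.

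**Figure D2:**
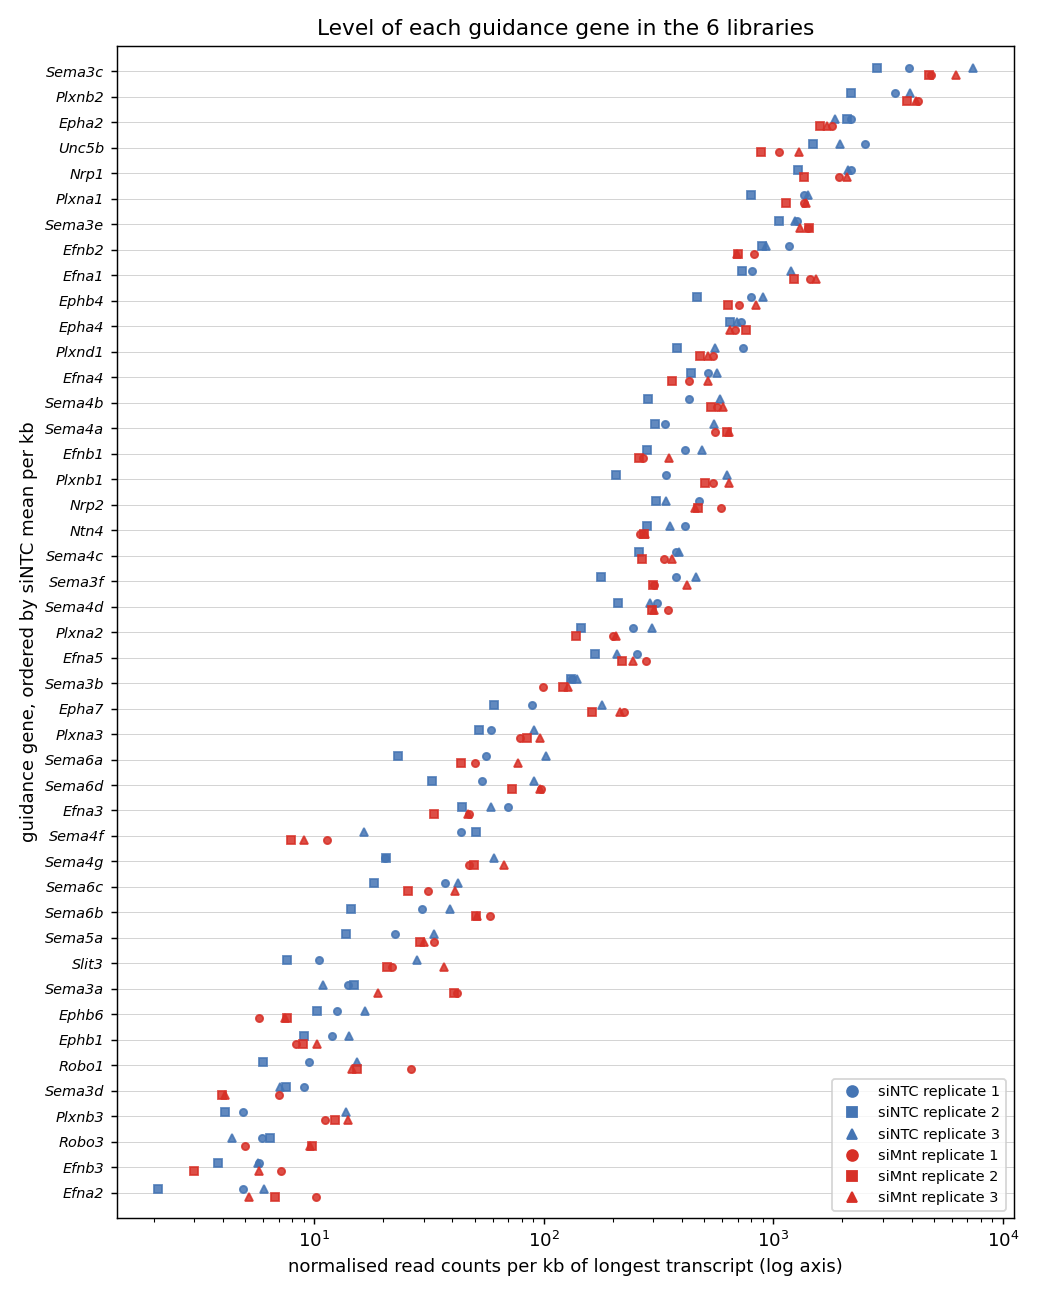
Normalised read counts per kb of longest transcript (x axis, log scale) of each guidance gene in the 3 siNTC libraries (blue) and the 3 siMnt libraries (red), ordered by the siNTC mean. Levels run from Efna2 at 4.35 per kb to Sema3c at 4708 per kb in siNTC. The groups do not overlap for 13 of the 45 genes (28.9%, against 31.5% of all tested genes), Sema4f and Unc5b among them.

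Mnt pairs with Max and binds the E-box CACGTG, so the promoter windows of the members were searched for these letters. The windows run from 250 bases before to 50 bases after each annotated start (RefSeq, GRCm38.p6), and 40 of the 45 members were in that table; Efnb3, Plxna1, Sema3b, Sema3f and Sema6a were not. CACGTG reads the same on both strands. It was found in the windows of 3 members, or 7.5% of those matched, against 8.09% of all genes in the table. All 3 are semaphorins, and each window holds the motif 1 time, shown in capitals with 12 bases to each side, on the plus strand of GRCm38.p6. The stretches lie at chr7:80198474-80198503 for Sema4b, chr2:124089934-124089963 for Sema6d and chr5:14025287-14025316 for Sema3e. The motif starts 102 bases before the annotated start in Sema4b and 23 bases before it in Sema6d, and at base 24 of the transcript in Sema3e.
Sema4b: ggtgcggcggccCACGTGaccaccttccct
Sema6d: cgagcgcagaagCACGTGggctaagggggt
Sema3e: gatgcggcgaggCACGTGggctggagacac
The mean levels of these 3 were higher in siMnt, with log2 fold changes of 0.46, 0.69 and 0.22, and Sema6d passed with the block (adjusted p = 0.0467) while Sema4b and Sema3e did not (0.0814 and 0.227). By sign 13 of the 17 semaphorins and 28 of the 45 members were higher, and the part of the motif was not tested. The letters were not found in the windows of Sema4f, Unc5b and Sema3a, which says nothing of binding elsewhere.

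Among the 8 ephrins 3 were higher and 5 lower by sign, with a median log2 fold change of -0.12, and 0 passed limma without the block. Efna1, an ephrin anchored to the membrane by a lipid and the main partner of Epha2, held 1323, 1194 and 1954 in siNTC replicates 1, 2 and 3 and 2363, 2003 and 2508 in siMnt. Every siMnt library lay above every siNTC library, though siMnt replicate 2 and siNTC replicate 3 were close. The log2 fold change was 0.65 ± 0.19 (adjusted p = 0.0971; 0.0133 with the block; 0.0392 by DESeq2). Efnb2, a transmembrane ephrin that binds Ephb4 and other EphB receptors, held 5609, 4280.0 and 4466 in siNTC and 3948, 3352 and 3317 in siMnt. Its groups did not overlap either, in the other direction, with a log2 fold change of -0.43 ± 0.14 (adjusted p = 0.122; 0.0267 with the block). All 3 transmembrane ephrins had values of 0 or below: Efnb1 stood at -0.40 ± 0.22 and Efnb3, near the low limit, at -0.00 ± 0.42, with a sign that changed under several settings. Efna3, Efna4 and Efna5 had 95% intervals that spanned 0, from -0.998 to 0.142, -0.63 to 0.17 and -0.16 to 0.67. Efna2 held at most 21.6 in any library. The exons of Efna3 and Efna4 overlap annotated antisense genes, and since strand is not stated those reads cannot be told apart.

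None of the 6 Eph receptors passed without the block, and 1, Epha7, passed with it. Epha2, the highest of them per kb, held 8555, 8229.9 and 7256 in siNTC and 7049.7, 6220.3 and 6725 in siMnt, groups that did not overlap by a small margin (log2 fold change -0.26 ± 0.12, adjusted p = 0.227; 0.138 with the block). Epha4, which binds ephrins of both types, stood at 4359.6 ± 256 and 4398 ± 375, with a 95% interval of -0.25 to 0.28 on the log2 scale. Ephb4, the receptor of Efnb2, stood at 3133 ± 987 and 3157 ± 451, with an interval of -0.50 to 0.61. Neither of them had a sign that held in all settings, and exons of Ephb4 and of Ephb1 overlap annotated genes on the other strand (Zan for Ephb4), whose reads cannot be told apart. Epha7 held 601, 409 and 1207 in siNTC and 1505, 1097 and 1449.7 in siMnt. Its siNTC replicate 3 exceeded siMnt replicate 2, so the groups overlapped, while within each numbered pair siMnt was higher, by 1.32, 1.42 and 0.26 on the log2 scale. The log2 fold change of Epha7 was 1.003 ± 0.35 (adjusted p = 0.142; 0.0169 with the block; 0.00444 without siNTC replicate 3). Ephb6, whose kinase domain is inactive, was scarce and held 47.2, 38.8 and 62.7 in siNTC and 21.6, 28.6 and 28.2 in siMnt. It had the smallest p of the family, with groups that did not overlap and a log2 fold change of -0.88 ± 0.30 (adjusted p = 0.128; 0.0749 with the block). Ephb1 was also scarce, at 54.6 ± 11.95 and 42.8 ± 4.53.

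Among the 6 secreted class 3 semaphorins, 0 passed limma without the block, and the scarce Sema3a had the largest increase of all members by log2 fold change. Sema3a, a repellent that signals through Nrp1 and A-type plexins, held 83.0, 88.6 and 64.6 in siNTC and 248, 241 and 113 in siMnt. All siMnt libraries lay above all siNTC libraries, siMnt replicate 3 by the least, and replicate 3 was the lowest of each group. The log2 fold change was 1.26 ± 0.33 (95% interval 0.51 to 2.01; adjusted p = 0.0701; 0.00886 with the block; 0.00231 by DESeq2). Of the 6 fits without 1 library Sema3a passed in 1, without siMnt replicate 3 (1.63, adjusted p = 0.038). In the other 5 it ran from 1.07 to 1.36, with adjusted p from 0.0634 to 0.272. Sema3c, which binds both neuropilins, held 21366, 15591 and 40605 in siNTC and 26729.5, 26160.5 and 34153 in siMnt. The control with the most lay above every siMnt library and the other 2 below, and the log2 fold change was 0.27 ± 0.32 (adjusted p = 0.653). Sema3e, which binds Plxnd1 without a neuropilin, held 8726, 7253 and 8519 in siNTC and 9671, 9820.3 and 8993 in siMnt. Its groups did not overlap but lay close together, at a log2 fold change of 0.22 ± 0.12 (adjusted p = 0.312). Sema3f, a ligand of Nrp2, spread widely in the controls (603 to 1564) and stood at 1150.2 ± 494 and 1156 ± 235. Sema3b and Sema3d were lower in every siMnt library than in any control, Sema3d by a narrow margin. Sema3b stood at -0.22 ± 0.15 on the log2 scale (adjusted p = 0.404) and Sema3d at -0.67 ± 0.31 (0.238).

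The membrane-bound semaphorins of classes 4, 5 and 6 held the lowest value and most of the higher ones. Sema4f, a transmembrane semaphorin with a binding motif for synaptic scaffold proteins at its end, held 177, 206 and 67.2 in siNTC and 46.5, 32.2 and 36.8 in siMnt. Each siMnt library lay below each control, and siNTC replicate 3 lay nearer to siMnt than to the other controls. The mean in siMnt was 25.6% of the control mean, with a log2 fold change of -1.80 ± 0.42 (95% interval -2.76 to -0.84; adjusted p = 0.0556; 0.0113 with the block; 0.000492 by DESeq2). Of the 6 fits without 1 library Sema4f passed in 1, without siNTC replicate 3 (-2.30, adjusted p = 0.00147). In the other 5 it ran from -1.94 to -1.497, with adjusted p from 0.102 to 0.205. Sema4a, which binds B-type plexins, held 1084, 982 and 1771 in siNTC and 1792, 2014 and 2064 in siMnt. Its groups met almost at siNTC replicate 3 and siMnt replicate 1 without overlap (log2 fold change 0.66 ± 0.22, adjusted p = 0.12; 0.0244 with the block). Sema4b, Sema4c and Sema4d had 95% intervals that spanned 0, from -0.09 to 1.002, -0.52 to 0.36 and -0.15 to 0.62. Sema4d is the ligand of Plxnb1, and it stood at 1215 ± 239.9 and 1412 ± 120.1. The exons of Sema4c overlap an annotated gene on the other strand.

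Sema4g held 92.6, 93.0 and 277 in siNTC and 214, 227 and 304 in siMnt, and siNTC replicate 3 was higher than 2 of the siMnt libraries. Its log2 fold change was 0.87 ± 0.41 (adjusted p = 0.251; 0.0414 with the block). Of class 6, whose members bind A-type plexins, all 4 were higher by sign. Sema6b held 110.0, 54.3 and 145 in siNTC and 217, 189.7 and 191 in siMnt, without overlap (log2 fold change 1.05 ± 0.34, adjusted p = 0.117; 0.0298 with the block). Sema6d held 348, 210.5 and 585 in siNTC and 627, 467 and 619 in siMnt, and only siNTC replicate 3 reached into the siMnt range (log2 fold change 0.69 ± 0.34, adjusted p = 0.261; 0.0467 with the block). Sema6a and Sema6c lay at 0.11 ± 0.49 and 0.06 ± 0.34, with signs that changed between settings. Sema5a, a transmembrane semaphorin with thrombospondin repeats, stood at 249.7 ± 105 and 333 ± 23.4 (adjusted p = 0.345). In all 6 members of class 4, all 4 of class 6 and Sema5a, siNTC replicate 3 lay nearer the siMnt mean than the mean of the other 2 controls, while 2 of the 6 class 3 members did so. Over all 45 members this held for 28 (62.2%), beside 60.3% of all tested genes.

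Of the 7 plexins 0 passed with or without the block, and the 3 B-type plexins had the highest estimates. Plxnb1, the receptor of Sema4d, had the smallest adjusted p of the family with the block, just outside the threshold, and held 2938, 1777 and 5431 in siNTC and 4742, 4362 and 5568 in siMnt. Within each pair siMnt was higher, by 0.69, 1.30 and 0.04 on the log2 scale, the third difference being close to 0. The log2 fold change was 0.67 ± 0.35 (adjusted p = 0.287; 0.0538 with the block; 0.0145 without siNTC replicate 3). Plxnb2, the second most abundant member per kb, held 21898, 14085 and 25529 in siNTC and 27668, 24781 and 27124 in siMnt (log2 fold change 0.41 ± 0.22, adjusted p = 0.295). Plxnb3, scarce but with the smallest p of the family without the block, held 30.6, 25.5 and 85.3 in siNTC and 69.2, 76.4 and 87.0 in siMnt. Its siNTC replicate 3 stood with the siMnt libraries, far above the other controls, and the log2 fold change was 0.91 ± 0.44 (adjusted p = 0.255; 0.0848 with the block; 0.0106 without siNTC replicate 3). The A-type plexins, which carry the class 3 and class 6 signals, were at log2 fold changes of 0.16 ± 0.22 for Plxna1, -0.30 ± 0.27 for Plxna2 and 0.40 ± 0.22 for Plxna3. Plxnd1, the receptor of Sema3e, was at -0.07 ± 0.22, with an interval of -0.58 to 0.45. The exons of Plxna1 and Plxnb1 overlap antisense genes, with the limit named for Efna3.

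Of the neuropilins, Nrp2 passed with the block and Nrp1 did not. Nrp1, a co-receptor for class 3 semaphorins and for VEGF, stood at 6768 ± 1818 and 6544 ± 1409.7, with an interval of -0.59 to 0.52. Nrp2 held 3177, 2066 and 2299 in siNTC and 3969, 3153 and 3076 in siMnt. Its groups overlapped because replicate 1 was the highest of each group, while within the 3 pairs siMnt was higher by 0.32, 0.61 and 0.42. The log2 fold change of Nrp2 was 0.45 ± 0.18 (adjusted p = 0.19; 0.0269 with the block). Without siNTC replicate 3 it was 0.40 (adjusted p = 0.219). The difference between the responses of the 2 neuropilins was not tested.

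Unc5b, a netrin receptor with a death domain, had the largest difference per kb of the members that were lower in siMnt. It held 14685, 8727 and 11489 in siNTC and 6191, 5194 and 7606 in siMnt. All siMnt libraries lay below all controls, and siMnt was lower in each pair, at -1.25, -0.75 and -0.59 on the log2 scale. The mean in siMnt was 54.4% of the control mean, with a log2 fold change of -0.86 ± 0.21 (95% interval -1.36 to -0.37; adjusted p = 0.0654; 0.00781 with the block; 0.00342 by DESeq2). Unc5b passed without a block when siNTC replicate 2 or siNTC replicate 3 was left out (adjusted p = 0.0471 and 0.049) and after trends with GC content and transcript length were removed (0.0169). In that last fit it was the one member called, where 7.75% of all genes were called, 4.81% higher and 2.95% lower. Without any other single library Unc5b did not pass (adjusted p from 0.0923 to 0.243), nor with the block when pair 2 was left out (0.0955). Over the 6 fits without 1 library the log2 fold change ran from -1.05, without siNTC replicate 2, to -0.68, without siNTC replicate 1. Ntn4, a netrin that binds laminin in basement membranes, held 1509, 1027 and 1296 in siNTC and 953, 1001 and 1011 in siMnt. The groups did not overlap, by a margin that was small against siNTC replicate 2 (log2 fold change -0.35 ± 0.16, adjusted p = 0.222; 0.113 with the block). Ntn1, the ligand for which Unc5b is best known, was under the minimum, at 12.2, 11.1 and 5.17 in siNTC and 8.65, 10.7 and 6.13 in siMnt, and Ntn3 and Ntn5 held at most 10.8 in any library.

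Slits and Robos were scarce, and the members higher in siMnt overlapped with the controls. Slit3 held 55.03, 39.9 and 147 in siNTC and 114, 109 and 192 in siMnt, with replicate 3 the highest of each group. Within the pairs siMnt was higher by 1.03, 1.42 and 0.39, and the log2 fold change was 0.95 ± 0.47 (adjusted p = 0.268; 0.0332 with the block). Slit1 and Slit2 were under the minimum, with 0 to 15 reads per library. Robo1, a Slit receptor, held 71.6, 45.4 and 116 in siNTC and 199, 116 and 110.3 in siMnt. It was higher in siMnt in pairs 1 and 2 but not in pair 3, and its log2 fold change was 0.91 ± 0.38 (adjusted p = 0.198; 0.074 with the block; 0.041 without siNTC replicate 3). Robo3 stood at 27.9 ± 5.30 and 40.5 ± 13.6 (adjusted p = 0.454).

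**Figure D3:**
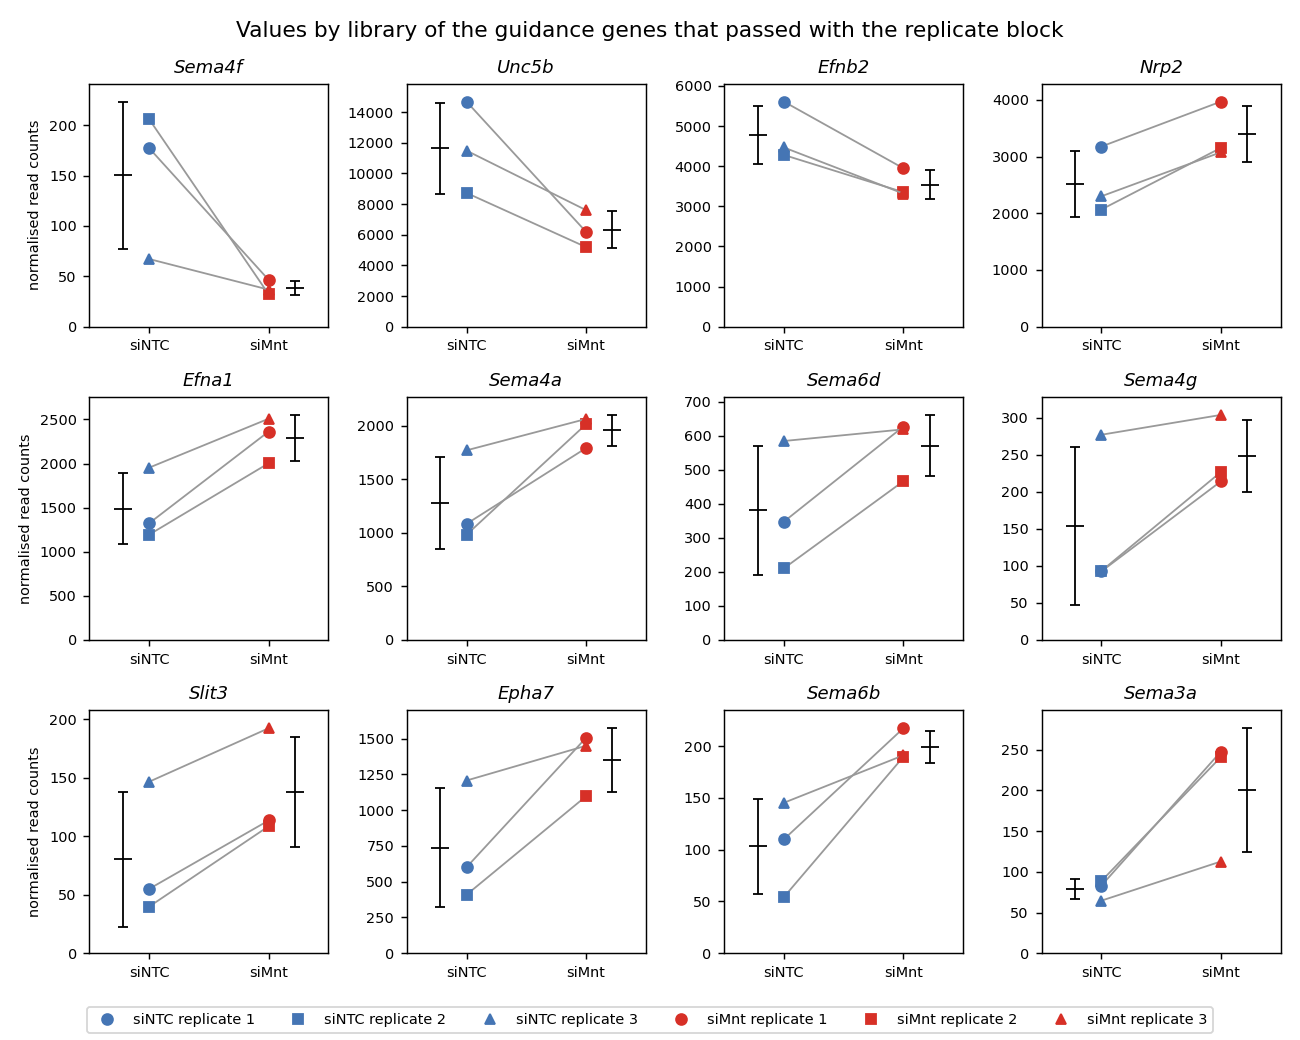
Normalised read counts (y axis, from 0) in each library for the 12 guidance genes that passed with the replicate block; grey lines join libraries of the same replicate number and black bars give mean ± SD over 3 libraries. Sema4f, Unc5b and Efnb2 are lower in siMnt along every line and the other 9 are higher along every line. Among those 9, the siNTC replicate 3 triangle is the highest control for all but Sema3a and Nrp2.

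Controls differed among themselves in these genes, and this touches every fold change given. siNTC replicate 2 was the lowest of the 6 libraries for 28 of the 45 members (62.2%), where it was the lowest for 28.4% of all tested genes. siNTC replicate 3 was the highest for 13 of the 45 members, a larger share than the 12.8% of all tested genes. The median transcript length of the members was 4.79 kb and their median GC content 56.5%, against 3.34 kb and 49.7% over all tested genes. After trends with GC content and length were removed from each library, siNTC replicate 2 was the lowest for 21 of the 45 members. That is still a larger share than the 25% of all genes. Within pairs 1, 2 and 3 the median log2 difference of the 45 members was -0.00, 0.49 and -0.07, against -0.02, -0.01 and -0.00 over all tested genes. Of the 3 medians only that of pair 2 was above 0, and its control is siNTC replicate 2. The part of GC content, length and this library in the differences was otherwise not tested. In 30 members (66.7%, against 57.7% of all genes) the 3 pairs shared a direction: in 17 members all 3 pairs were higher in siMnt (28.4% of all genes) and in 13 all were lower (29.4% of all genes).

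**Figure D4:**
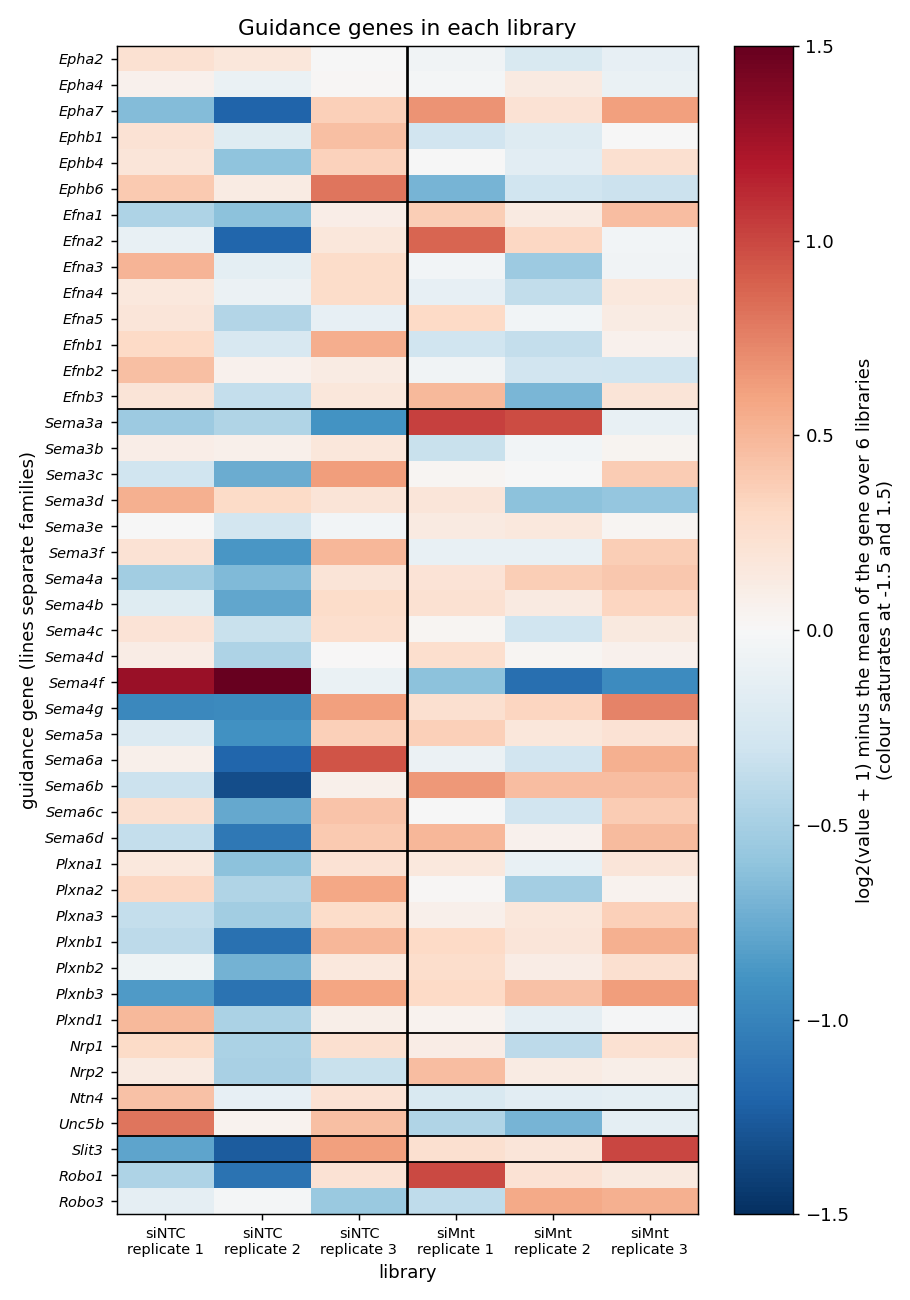
Each guidance gene (rows, by family) in each library (columns), as log2(value + 1) minus the mean of the gene over the 6 libraries. The siNTC replicate 2 column is blue in most rows, being the lowest library for 28 of 45 genes, and siNTC replicate 3 resembles the siMnt columns for many class 4 and class 6 semaphorins and B-type plexins.

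Of signalling partners outside these families, none passed limma with all 6 libraries and no block. DESeq2, also without a block, passed Ngef (adjusted p = 0.00982), Mical1 (0.00352), Dpysl3 (0.00348) and Flt1 (0.0212), where 11.6% of all genes passed. Limma without siNTC replicate 3 and no block called 3 effectors higher and 1 lower, and 2 partners higher, beside 16% of all genes. Of 39 tested effectors and adaptors of the receptors (45 listed) 0 passed with limma, 6 had an unadjusted p under 0.05 (15.4%, against 23.4% of all genes), and with the block 4 were higher and 1 lower (12.8%, against 15.9% of all genes); the list median was 0.06. Ngef, named after its values were seen, is the exchange factor ephexin, which acts downstream of EphA receptors, and it held 65.5, 45.4 and 176 in siNTC and 284, 239 and 298 in siMnt. Its groups did not overlap (log2 fold change 1.74 ± 0.44, adjusted p = 0.0677; 0.0087 with the block). Mical1, an oxidase of actin that acts downstream of semaphorins and plexins, stood at 54.3 ± 7.15 and 132 ± 44.1 (adjusted p = 0.0626; 0.0208 with the block). Dpysl3, a collapsin response mediator of Sema3a signalling, held 162, 177 and 165 in siNTC and 72.4, 57.3 and 107 in siMnt. Every siMnt library was lower, and the log2 fold change was -1.13 ± 0.25 (adjusted p = 0.0511; 0.0158 when blocked). Of 20 tested partner receptors, ligands and sheddases (26 listed) 0 passed with limma, 4 had an unadjusted p under 0.05 (20% of them), and with the block 1 was higher (5% of them), below the same shares of all genes. That 1 was Flt1, a VEGF receptor with a siNTC mean of 372 ± 75.5 and a siMnt mean of 587.5 ± 70.5 (adjusted p = 0.0854 unblocked, 0.0138 blocked). The receptor tyrosine kinase Mst1r, kin to Met and a partner of B-type plexins, stood at 26.6 ± 5.76 and 50.1 ± 3.60 (adjusted p = 0.1; 0.0577 with the block). Dcc and neogenin were also named after their values were seen. Dcc, the netrin receptor, was scarce, at 15.4 ± 5.49 and 5.11 ± 1.62 (adjusted p = 0.121), and neogenin, Neo1, stood at 4137 ± 317 and 3957 ± 225 (adjusted p = 0.785).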

How the data were processed

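The authors deposited 1 table of normalised read counts per gene symbol, treated here as a signal that is never negative. Per the submitters' processing notes, TopHat2 2.1.0 and mm9 were used, and both DESeq 3.5 and DESeq2 without a version are named. The counter, annotation, strand and filters are not stated in the labels. The values are read counts divided by 1 factor per library: 99.73% of the values above 0 returned a whole read within 0.05. Groups and replicate numbers come from the titles. A pseudocount of 1 was added before the log2 step, 1958 genes under a mean of 10 were dropped, and limma 3.58.1 (R 4.3.3) tested the others (empirical Bayes with a trend, no block). edgeR 4.0.16 and DESeq2 1.42.0 used the recovered reads. Python 3.11.15 and pandas 2.3.3 prepared tables. The scripts were tested on simulated data. Same-numbered libraries deviated together across genes (correlations 0.28, 0.50 and 0.35, every other pair 0.03 or lower). Deviations were taken from group means over 3 libraries, so positive same-number values push the others down and the low values are not separate evidence. The pairing is thus an assumption read from these 3 correlations and the titles. Blocked values depend on it and stand beside calls they change. Members and lists were chosen with earlier results of these data known. By the rule for named genes, every library is given for Mnt, for members passing the main test and for the member of each family with the smallest p, and the most expressed members are described. The members called with the replicate block or with neighbouring roles that are also given by library were chosen after their values were seen. Of each pathway list, the 2 genes with the smallest p are named; Ngef, Dcc, Neo1 and the single marker genes were chosen after their values were seen. Transcript lengths are from GENCODE M21, a different build used only for lengths, GC content and which genes overlap.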

Additional observations from a re-analysis of the deposited data

How the results depend on the processing

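Of 939 values of single members under the alternatives, 819 kept their direction and side of the threshold, 72 (22 genes) passed the threshold and 48 (11 genes) changed sign. The 11 genes had main log2 fold changes from -0.08 (Sema4c) to 0.27 (Sema3c), and none of those 48 values passed. With the replicate block 9 members passed higher and 3 lower in siMnt, among 1998 genes in all. DESeq2 gave 2 and 2 (1457 genes). Removing trends with GC content and length, an alternative chosen after seeing the data, gave 0 and 1 (963 genes), and with the replicate block 7 and 5 (2346 genes). The replicate block without replicate 1, 2 or 3, also chosen after seeing the data, gave 5 and 2 (1107 genes), 0 and 0 (0 genes, 2907 at an unadjusted p under 0.05) and 17 and 3 (3805 genes). Without 1 library at a time 0 to 12 members passed higher and 0 to 2 lower, among 0 to 2012 genes. The most were without siNTC replicate 3. Where 0 genes passed, an unadjusted p under 0.05 was found for 2193 (first siNTC library left out), 1816 (first siMnt library) and 1920 (second siMnt library). All genes called were 322 with a mean of at least 50 and 306 with limma without a trend, against 494, and 0 members passed in both. Mnt passed with DESeq2 (-0.98), the replicate block (-0.96), GC content and length trends removed with and without the block (-1.04), and the block without replicate 1 or 3 (-0.89 in both), and ranged from -1.19 to -0.77 without 1 library. Signs changed with GC content and length trends removed, with and without the block, in Epha4 (-0.0215), Ephb4 (-0.00857), Sema6c (-0.0475), Plxna1 (-0.00476) and Nrp1 (0.0469). They changed with the replicate block without replicate 2 in Epha4 (-0.10), Ephb4 (-0.14), Efnb3 (0.16), Sema3f (-0.23), Sema6a (-0.28), Sema6c (-0.14) and Plxna1 (-0.018), and without replicate 1 in Plxnd1 (0.12) and Nrp1 (0.0343). Efnb3 was 0.00834 with a pseudocount of 5, 0.0583 with edgeR and 0.0602 with DESeq2, Sema6a was -0.0872 with edgeR and -0.0836 with DESeq2, and with quantile normalisation Sema6c was -0.077 and Nrp1 0.00358. Without 1 library at a time the log2 fold change ran from -0.0559 to 0.0621 for Epha4, -0.23 to 0.24 for Ephb4, -0.25 to 0.34 for Efnb3, -0.0326 to 0.66 for Sema3c, -0.31 to 0.38 for Sema3f, -0.27 to 0.0491 for Sema4c, -0.45 to 0.61 for Sema6a, -0.30 to 0.29 for Sema6c, -0.11 to 0.30 for Plxna1, -0.32 to 0.16 for Plxnd1 and -0.28 to 0.16 for Nrp1. The cause of these changes was not tested. Depth limits the scarce members, Efna2, Efnb3 and Robo3 above all.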
